A study of Mus musculus with 44 samples.

Results

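Replication licensing genes were followed in mouse back skin during bleomycin injury and after it was stopped. The genes are the helicase subunits Mcm2, Mcm3, Mcm4, Mcm5, Mcm6 and Mcm7, the helicase partner Mcm10, the loading factors Cdc6 and Cdt1, and the sliding clamp Pcna. They were chosen by name for their place in DNA replication, with earlier results of these data known. All 10 were found among the 43411 genes of the deposited table, and all 10 were among the 17037 genes with a mean normalized count above 3 that were tested. Skin RNA was sequenced from 44 female C57Bl/6 mice that were wild type and 8 weeks old at the start. A group of 10 mice received saline. Another 10 mice received bleomycin, a drug that breaks DNA and scars the skin, under the skin every day for 2 weeks (100 µL at 1 U/mL), and 10 more for 4 weeks. A supplementary legend of the study gives a lower concentration of bleomycin. The recovery groups also received bleomycin for 4 weeks and were then left for 6 weeks (6 mice) or 10 weeks (8 mice) without it. The mice were therefore older at harvest in the recovery groups, and how long the saline mice were injected is not given in the sources used here, so age and treatment history cannot be told apart in the comparisons of recovery with saline. Bleomycin and recovery time points set against each other differ in age at harvest as well.

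Licensing is the step that marks a stretch of DNA to be copied. In G1, the origin recognition complex, Cdc6 and Cdt1 place the ring of Mcm2 to Mcm7 on DNA, where it waits until S phase kinases turn it into the running helicase. Mcm10 helps to switch the helicase on, and Pcna holds the polymerases on the DNA behind it and also serves in DNA repair. In skin these genes are most active in the basal epidermis and in the matrix of growing hair follicles. E2F transcription factors raise most of them when cells leave rest, whereas the genes of mitosis peak later in the cycle.

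Between 8509094 and 15285577 reads per mouse were assigned to genes (median 11310008), and each licensing gene had at least 29 reads in every mouse. Depth differed by group. The median was 9523976 with saline, 9863482 and 12255521 at 2 and 4 weeks of bleomycin, and 11528777 and 12905996 at 6 and 10 weeks of recovery. What part depth has in the differences was not tested. Of the skin markers, Krt5 and Krt14 of the basal epidermis were abundant in every mouse, and 0 of 6 basal epidermal markers were called different from saline at any time (limma; 3 had an adjusted p under 0.05 at 2 weeks and 2 at 4 weeks, each with a fold under 1.5). Samples of whole skin mix many cell types, and a lower level can mean fewer cells of a type or less RNA per cell; these cannot be told apart. No batch was named in the labels. Saline mouse 1 had the highest value of its group for all 10 licensing genes, and saline mouse 2 the lowest for 9 of 10. Nothing in the labels says more of the replicates than that they are separate mice, and the p-values measure the spread between these mice.

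Across the 5 groups the mean level was highest with saline for 9 of the 10 genes, Cdt1 being highest at 4 weeks of bleomycin, and lowest at 6 weeks of recovery for all except Mcm3 and Cdt1, which were lowest at 10 weeks. Levels are normalized counts, that is reads divided by one factor per mouse, and values are given as mean ± SD over mice. Per kilobase of annotated exon, Pcna was the most abundant in saline skin at 489 ± 121 (n = 10) and Mcm10 the least at 11.1 ± 6.74, below Cdc6 at 15.3 ± 6.1. Pcna was above Mcm7, the gene next to it in this order, in 10 of 10 saline mice, and Cdc6 was above Mcm10 in 10 of 10. Among the helicase subunits, Mcm7 had 158 ± 47.5 normalized counts per kilobase and Mcm6 144 ± 41.6, and Mcm7 was above Mcm6 in 9 of 10 saline mice. Mcm4 (135 ± 35.1) and Mcm5 (130.2 ± 48.5), next in the order, differed by less than the spread, with Mcm4 above in 7 of 10 mice. Exon lengths count all annotated isoforms, so genes with long rare isoforms are understated on this scale.

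**Figure D1:**
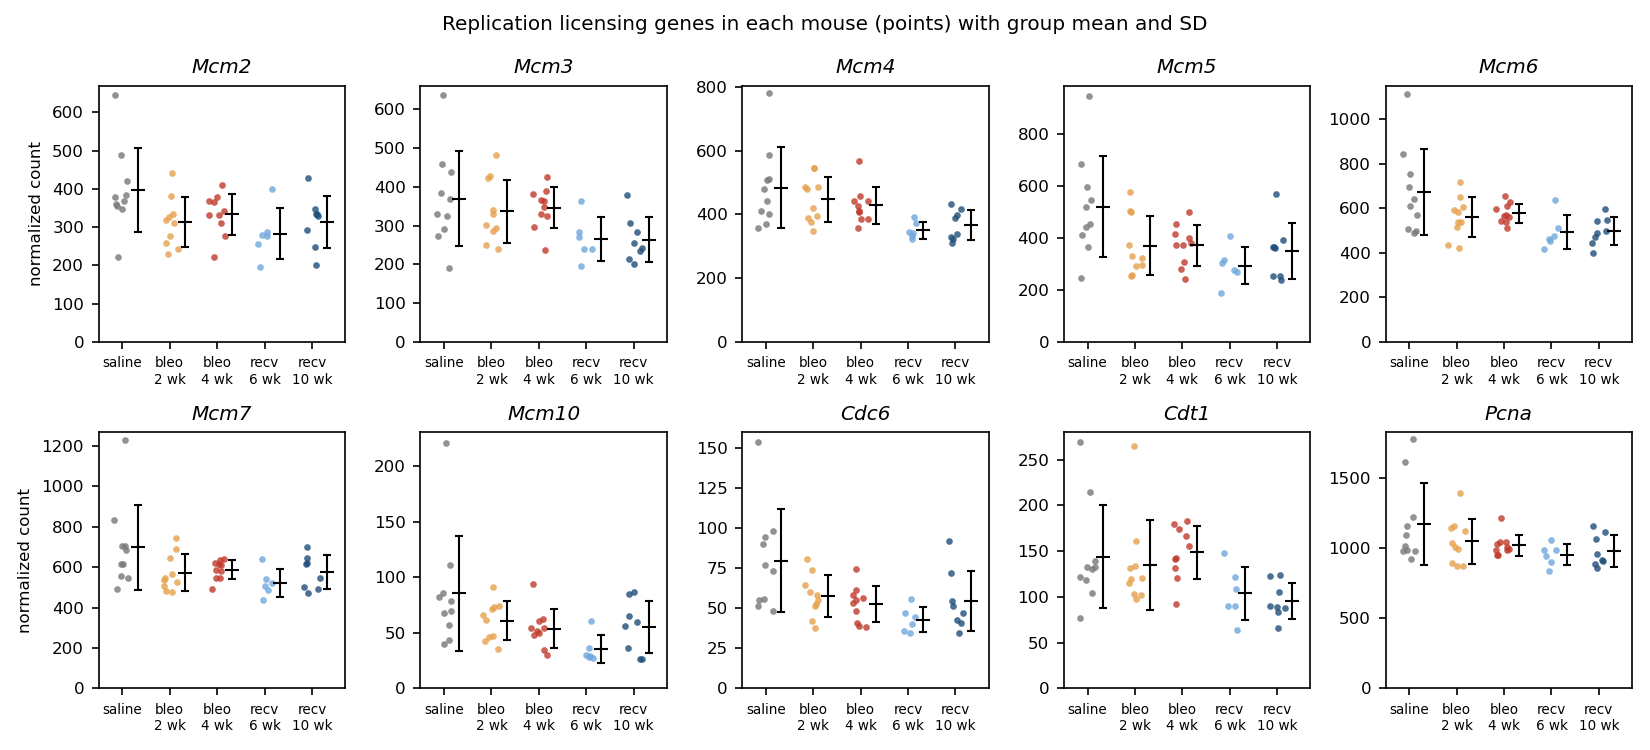
Normalized count (vertical axis, from 0) of each of the 10 licensing genes in each of the 44 mice (points), by group (horizontal axis; bleo, bleomycin; recv, recovery), with the group mean and SD as bars. Saline mouse 1 is the highest point of its group in all 10 panels, and groups overlap in every panel; the recovery groups sit low, for example at 35.4 on average for Mcm10 at 6 weeks against 85.6 with saline.

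Of the ring subunits, Mcm2 ranged from 222 through a median of 373 to 646 with saline, and its group means then went from 397 ± 110 (saline) to 312 ± 65.3 and 334 ± 53.5 during bleomycin (2 and 4 weeks) and 283 ± 66.1 and 314 ± 68.1 in recovery (6 and 10 weeks). Mcm3, given in the same order of groups, was at 370 ± 123, 337 ± 81.7, 346 ± 52.9, 265 ± 56.7 and 264 ± 57.1. For both genes the lowest mean was in recovery.
Mcm4 was at 484 ± 126, 447 ± 71.3, 428 ± 58.1, 351 ± 26.5 and 368 ± 47, and Mcm5 at 520 ± 194, 371 ± 115, 372 ± 78.3, 293 ± 70.6 and 349 ± 108. In the same order, Mcm6 was at 673 ± 194, 560.4 ± 90.1, 578 ± 43.3, 493.5 ± 76.5 and 500 ± 62.5, and Mcm7 at 698 ± 210, 572 ± 91.1, 587 ± 47.4, 523 ± 68.4 and 574 ± 83.3. In all 6 ring subunits the spread was widest among the saline mice, and the 2-week and 4-week bleomycin means lay within 1 SD of each other.
The helicase partner Mcm10 was at 85.6 ± 51.9, 61.1 ± 17.5, 53.9 ± 17.3, 35.4 ± 12.7 and 55.3 ± 23.8. The loaders moved in different orders, Cdc6 being at 79.8 ± 31.9, 57.7 ± 13.2, 52.5 ± 11.3, 42.9 ± 7.85 and 54.4 ± 18.9, and Cdt1 at 144 ± 56.3, 135 ± 49.5, 149 ± 29, 104 ± 29.2 and 96 ± 19.7. Pcna had the smallest ratio of highest to lowest group mean, at 1174 ± 291, 1048 ± 162, 1020 ± 75.6, 951 ± 75.6 and 982 ± 114, and its lowest saline mouse (924) was below 7 of 10 and 10 of 10 mice of the bleomycin groups.

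The 10 genes varied together from mouse to mouse. With group means taken off, the Pearson r of each gene with the mean of the other 9 over the 44 mice ran from 0.76 for Cdt1 and 0.77 for Pcna to 0.95 for Mcm7. These correlations are a description: the values share a size factor per mouse, and saline mouse 1 lies far from the rest. In the group at 6 weeks of recovery, mouse 4 was the highest for all 10 genes. At 10 weeks of recovery mouse 1 was the highest for 9 of 10, with Mcm4 highest in mouse 2. The bleomycin groups each had a pair of leading mice, mouse 8 for 6 genes and mouse 2 for 4 at 2 weeks, and mouse 8 for 6 genes and mouse 1 for 4 at 4 weeks. Of all other tested genes, the 5 whose pattern over mice was most like the mean of the licensing genes were Uhrf1 (r = 0.94), Tk1 (0.92), Chaf1a (0.92), Fen1 (0.91) and Lig1 (0.91). Uhrf1 and Chaf1a act on newly copied chromatin, Tk1 makes thymidine nucleotides, and Fen1 and Lig1 join the pieces of the lagging strand.

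Because these genes moved together, the 250 bases before their start sites were searched for the letters of an E2F site: TTTCCCGC, TTTCGCGC, TTTGCCGC or TTTGGCGC on either strand, where overlapping matches count separately. RefSeq promoter windows (build GRCm38.p6) were at hand for 9 of the 10 genes, all except Mcm4. A match was found for 4 of 9 (44.4%), namely Mcm5, Mcm6, Mcm7 and Cdc6, against 2.16% of the 27025 genes with a window. The letters are not particular to the licensing genes, since 10 of 49 other replication genes listed below had a match (20.4%). For the mitosis genes listed below, 1 of 21 had a match (4.76%). The letters TTTGAA, found in many promoters of mitotic genes, stood in 1 of 9 licensing genes (11.1%), in 9 of 21 mitosis genes (42.9%) and in 18.3% of all genes with a window. Such a match is a description of the letters and not a bound site. The stretches of Mcm5 and Mcm6 are shown because both hold 2 or more matches before every annotated start of the gene; each is written 5′ to 3′ on the strand of the gene, with the matched letters in capitals. The Mcm5 stretch lies at chr8:75109326-75109397 on the plus strand and spans 183 to 112 bases before the start, and the Mcm6 stretch lies at chr1:128359715-128359845 on the minus strand, 140 to 10 bases before it.
Mcm5: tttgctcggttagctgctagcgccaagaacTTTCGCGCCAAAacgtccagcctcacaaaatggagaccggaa
Mcm6: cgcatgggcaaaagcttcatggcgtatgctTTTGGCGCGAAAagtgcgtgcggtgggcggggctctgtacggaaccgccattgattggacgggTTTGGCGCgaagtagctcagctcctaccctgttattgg
In Mcm5 the 12 capital letters hold 2 overlapping matches, one on each strand. In Mcm6 a like pair of 12 letters stands farther from the start, and one more match stands 47 bases before it. The matches of Mcm7 and Cdc6 lie inside other annotated transcripts of the same gene and are not shown.

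At 2 weeks of bleomycin the licensing genes leaned low, and none was called. A gene was called when its fold change was above 1.5 and its adjusted p (limma on log2(normalized count + 1), Benjamini-Hochberg over the 17037 genes) was under 0.05. Lower calls made up 7.43% of all genes tested and higher calls 9.3%, whereas 0 of the 10 licensing genes were called (edgeR 0, DESeq2 0; 5 had an unadjusted p under 0.05 in limma). Counts at an unadjusted p are given here and below without the share of all genes, and genes that vary together are not independent. All 10 differences from saline were negative, with a median log2 fold change of -0.24 against 0.00 over all genes tested.
The ring subunit Mcm5 had the most negative log2 fold change of the 10. It ranged from 244 through a median of 485 to 947 with saline and from 254 through 327 to 575 at 2 weeks. The groups overlapped widely, although 9 of 10 bleomycin mice were under the saline mean. The log2 fold change was -0.46 (SE 0.18, limma adjusted p = 0.0433), a fold under 1.5. By the adjusted p alone it was 1 of 10 genes lower, against 18.2% of all genes, and it missed it in 12 of 44 single-mouse omissions, up to 0.114 without saline mouse 1.
Cdc6, the loader, went from 79.8 ± 31.9 with saline to 57.7 ± 13.2 (log2 -0.41, SE 0.17, limma adjusted p = 0.0625), and Mcm10 from 85.6 ± 51.9 to 61.1 ± 17.5 (-0.37, SE 0.24, limma adjusted p = 0.241). Cdt1, its partner in loading, differed by -0.07 (95% interval -0.42 to 0.28), and Mcm3 and Mcm4 by -0.10 and -0.09. A difference of 1.5-fold lies outside the interval for Mcm3, Mcm4, Mcm6, Mcm7, Cdt1 and Pcna, and inside it for Mcm2, Mcm5, Mcm10 and Cdc6.

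At 4 weeks of bleomycin again 0 of the 10 genes were called in limma, where 7.37% of all genes were called lower and 10.5% higher; 3 had an unadjusted p under 0.05. edgeR on the recovered reads called 1 gene lower (Mcm10, log2 -0.65), against 8.01% of all genes, and DESeq2 2 (Mcm10 at -0.67 and Cdc6 at -0.60), against 8.29%. The median log2 fold change was -0.19, against 0.00 over all genes, and 9 of 10 differences were negative.
Cdc6 ranged from 48.1 through 75.2 to 154 normalized counts with saline and from 38.4 through 54.3 to 74.6 at 4 weeks. All 10 bleomycin mice were under the saline mean and 4 were under the lowest saline mouse. Its log2 fold change of -0.53 (SE 0.17, limma adjusted p = 0.0128) fell short of the fold threshold (1 of 10 genes lower by the adjusted p alone, against 18.2% of all), and passed it without saline mouse 8 (-0.60), saline mouse 9 (-0.59) or 4-week mouse 8 (-0.59).
For Mcm10 the difference was -0.55 (SE 0.24, limma adjusted p = 0.0662), and it passed both thresholds without saline mouse 2 (-0.65), saline mouse 8 (-0.64) or 4-week mouse 1 (-0.64). Cdt1 was the one member with a positive value, 149 ± 29 against 144 ± 56.3 with saline (log2 0.10, 95% interval -0.25 to 0.45). Between 4 and 2 weeks of bleomycin 0 of 10 genes were called (0 in edgeR and DESeq2, 0 with an unadjusted p under 0.05 in limma), where 0.863% of all genes were called lower and 1.49% higher. The differences ran from -0.18 for Mcm10 to 0.17 for Cdt1.

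At 6 weeks of recovery, Mcm10, Cdc6 and Mcm5 were lower than with saline. These 3 of 10 were called lower and 0 higher, against 1.71% of all genes called lower and 3.33% higher, and edgeR and DESeq2 called the same 3, against 2.06% and 2.65% of all genes lower. All 10 differences were negative, with a median log2 fold change of -0.43 against 0.00 over all genes, and each had an unadjusted p under 0.05 in limma. The 10 genes vary together across mice, so these are not independent results.
Mcm10, at chr2:4989714-5012791 on the minus strand (GRCm38), ranged from 40 through a median of 74.1 to 221 normalized counts with saline and from 27.7 through 29.7 to 60.7 at 6 weeks of recovery. In 5 of 6 recovered mice it was below the lowest saline mouse, and mouse 4 alone fell within the saline range. It fell by 1.14 on the log2 scale (SE 0.28, limma adjusted p = 0.00592), to 0.454 times the saline level. With single mice left out, the adjusted p of limma stayed between 0.00256 and 0.0197.
Cdc6, at chr11:98907801-98923940 on the plus strand, ranged from 34.5 through 42.3 to 55.5 at 6 weeks of recovery. Here too 5 of 6 mice were below the lowest saline mouse. It fell by 0.81 (SE 0.20, limma adjusted p = 0.0071). With single mice left out the log2 fold change of Cdc6 ran from -0.89 (recovered mouse 4) to -0.70 (saline mouse 1).
Mcm5, at chr8:75109569-75128439 on the plus strand, ranged from 190 through 289 to 406. All 6 mice were under the saline mean of 520, and 1 was under the lowest saline mouse. The fall was 0.78 (SE 0.21, limma adjusted p = 0.0141). It was not called without mouse 5 of this group (-0.66, limma adjusted p = 0.0736) or with the level of hair keratins in the fit (-0.60, adjusted p = 0.0522).
The other helicase subunits had smaller values. Mcm4 (-0.43, limma adjusted p = 0.016), Mcm6 (-0.41, 0.0278) and Mcm7 (-0.38, 0.042) passed the adjusted p and not the fold threshold. None of these 3 held with every mouse left out in turn. Without recovered mouse 5 their limma adjusted p was 0.0503, 0.101 and 0.147, and the adjusted p was above 0.05 in 1, 5 and 10 of the 44 omissions, including saline mouse 1 for Mcm6 and Mcm7. By the adjusted p alone 6 of 10 genes were lower, against 4.09% of all genes. Mcm2 (-0.47, limma adjusted p = 0.0535), Mcm3 (-0.43, 0.0979), Cdt1 (-0.43, 0.167) and Pcna (-0.27, 0.0935) did not pass. Mcm7 shares its locus with Cops6 and Ap4m1 on the opposite strand and with Mir25, Mir93 and Mir106b on its own, and Cdt1 overlaps Gm20388 on the same strand; the strand setting of the counting is not given in the sources used here, so reads of these pairs may have been shared.

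**Figure D2:**
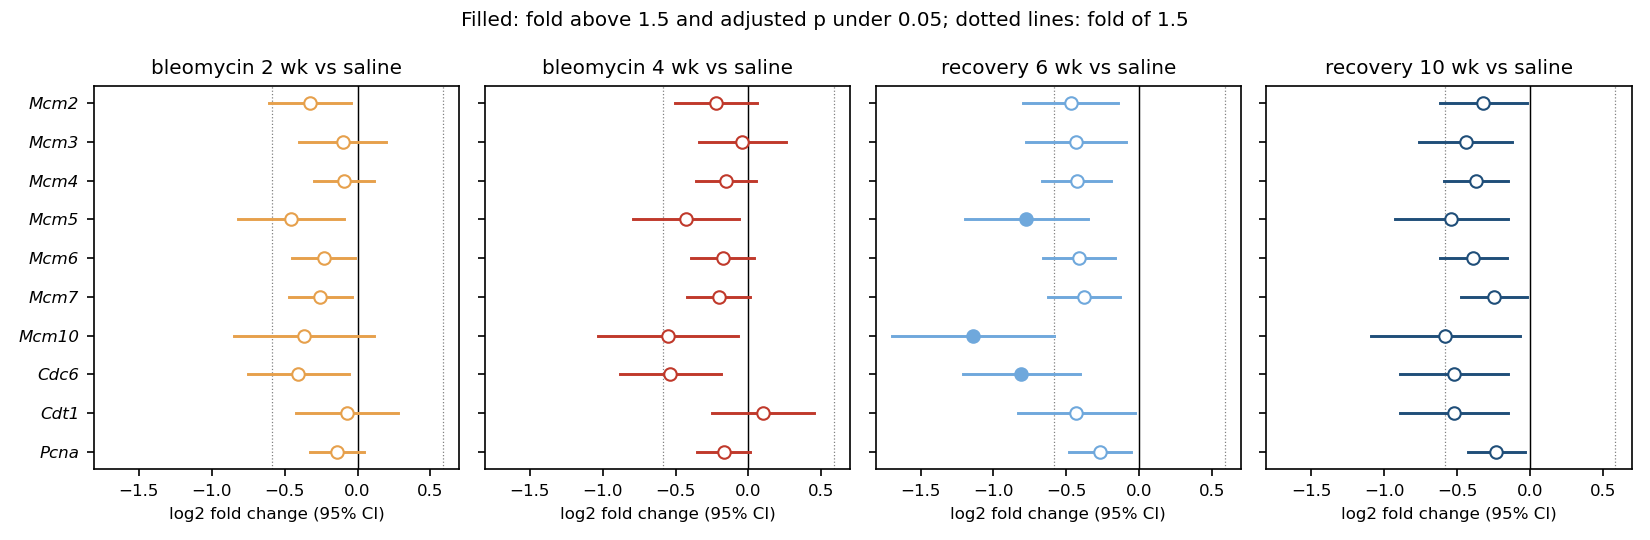
Log2 fold change against saline (horizontal axis, point) with its 95% interval from limma (bar) for each licensing gene, in 4 panels for the 4 groups; filled points are called, and dotted lines mark a fold of 1.5. Filled points appear at 6 weeks of recovery only, for Mcm5, Mcm10 and Cdc6, and every point lies left of 0 except Cdt1 at 4 weeks of bleomycin.

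At 10 weeks of recovery the licensing genes were still under saline on average, with a median log2 fold change of -0.42 against 0.00 over all genes, and 0 of 10 were called. Over all genes 0.998% were called lower and 2.05% higher. edgeR and DESeq2 called 0, and 10 of 10 differences were negative. All 10 had an unadjusted p under 0.05 in limma, a count given without the share of all genes. The 10 genes vary together across mice and are set against the same saline mice, so these are not 10 independent results.
Mcm6 ranged from 488 through 627 to 1115 with saline and from 401 through 495 to 596 at 10 weeks. All 8 recovered mice were under the saline mean, and 3 were under the lowest saline mouse. The log2 fold change was -0.39 (SE 0.11, limma adjusted p = 0.0317). Mcm4 was similar (-0.37, SE 0.11, limma adjusted p = 0.0334), and these 2 of 10 passed the adjusted p alone, against 2.3% of all genes. Both were lost with single mice left out, in 6 of 44 omissions for Mcm6 (limma adjusted p up to 0.0746, without 10-week mouse 3) and in 8 of 44 for Mcm4 (up to 0.0816, without 10-week mouse 7), saline mouse 1 being among them for both.
Mcm10 spread from 26.4 through 57.9 to 86.3, a wider range than at 6 weeks, and differed from saline by -0.58 (SE 0.25, limma adjusted p = 0.18). Mcm5 was at 349 ± 108 (-0.54, SE 0.19, limma adjusted p = 0.0846), Cdc6 at 54.4 ± 18.9 (-0.52, SE 0.18, 0.082) and Cdt1 at 96 ± 19.7 (-0.52, SE 0.18, 0.082). Single mice decided these calls: Mcm5 passed both thresholds without saline mouse 2 (-0.65) or 10-week mouse 1 (-0.65), Cdc6 without saline mouse 8 (-0.59) or 10-week mouse 1 (-0.64), and Cdt1 without saline mouse 2 (-0.61).

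Setting the time points against each other gave no called gene. The later mice were also older, so age and time after bleomycin cannot be told apart here. Between the end of bleomycin (4 weeks) and week 6 of recovery all 10 differences were negative (median log2 fold change -0.28), and 0 were called in limma, edgeR or DESeq2, where 7.14% of all genes were called lower and 4.8% higher; 4 had an unadjusted p under 0.05 in limma. Cdt1 had the lowest adjusted p. It ranged from 91.8 through 149 to 183 at 4 weeks of bleomycin and from 64.2 through 99.3 to 148 at 6 weeks of recovery, and all 6 recovered mice were under the mean of the bleomycin group. Its log2 fold change was -0.53 (SE 0.20, limma adjusted p = 0.0441), 1 of 10 genes lower by the adjusted p alone where 13.4% of all genes were. It passed the fold threshold as well without 4-week mouse 2 (-0.61) or recovered mouse 4 (-0.64) or 6 (-0.59), and missed the adjusted p in 11 of 44 omissions, up to 0.162 in limma without recovered mouse 1 (-0.41). Mcm10 differed by -0.59 (SE 0.28, limma adjusted p = 0.113). Both contrasts of 6 weeks of recovery use the same 6 mice, so they are not independent. From 6 to 10 weeks of recovery 0 of 10 were called (edgeR 0, DESeq2 0, 0 with an unadjusted p under 0.05 in limma), against 0.0704% of all genes called lower and 0.0176% higher. The largest of these differences was that of Mcm10 (0.56, 95% interval -0.02 to 1.14), and the median was 0.10.

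The other replication genes, 60 in number, were split by role into origin recognition and loading partners (10), origin firing and fork proteins (16), polymerases and clamp loading (21), nucleotide supply (7) and chromatin copied with the DNA (6). Against saline, 2 of the 60 were lower and 1 higher with 2 weeks of bleomycin and 6 were lower with 4 weeks. In recovery 15 were lower by week 6 and 4 by week 10. The shares called lower were 3.33%, 10%, 25% and 6.67%, against 7.43%, 7.37%, 1.71% and 0.998% of all genes, so that the share at 2 weeks was under the background and the share at 4 weeks near it. The shares called higher were 1.67%, 0%, 0% and 0%, under the 9.3%, 10.5%, 3.33% and 2.05% of all genes. The median log2 fold changes were -0.15, -0.16, -0.36 and -0.27. Without saline mouse 1 these lower calls were 1, 2, 9 and 2 in the same order.
Orc1, the subunit of the origin recognition complex that joins it in G1, had the largest fall of the 60 at 6 weeks of recovery. It ranged from 6.85 through 20 to 35.8 normalized counts with saline and from 4.1 through 7.38 to 13.4 at 6 weeks, and the groups overlapped. It fell by 1.38 on the log2 scale (SE 0.31, limma adjusted p = 0.00272) and had a log2 fold change of -1.23 at 10 weeks (SE 0.28, 0.00575). The level of Orc1 is low, and log2(normalized count + 1) understates its change. The other 9 partners, among them Orc2 to Orc6 and the Cdt1 inhibitor Gmnn, were not called against saline at any time, and the median of the 10 at 6 weeks of recovery was -0.10.
Of the firing and fork list, 7 of 16 were lower at 6 weeks of recovery, led by Wdhd1 (-1.18, limma adjusted p = 0.00594), which links helicase and polymerase, and Ticrr (-1.07, 0.00399), which helps Cdc45 onto the helicase. At 4 weeks of bleomycin 3 of 16 were lower, led by Ticrr (-0.75, limma adjusted p = 0.00474) and the checkpoint mediator Clspn (-0.67, 0.00167), and Clspn was also lower at 10 weeks of recovery (-0.75, 0.00845).
Among polymerases and clamp loaders, Chtf18, a part of an alternative clamp loader, was lower at 2 weeks (-0.66, limma adjusted p = 0.00581) and 4 weeks (-0.61, 0.0102) of bleomycin and at 6 weeks of recovery (-0.67, 0.0485). Pole, the catalytic subunit of the leading strand polymerase, was lower at 6 weeks of recovery (-0.70, limma adjusted p = 0.00712). Dna2, a nuclease of replication and break repair, was the 1 gene of the 60 that was higher against saline, from 146 to 219 at 2 weeks of bleomycin (0.60, SE 0.13, limma adjusted p = 0.000314); it was not called there in DESeq2 or without saline mouse 8.
For nucleotide supply, the calls were Dut at 4 weeks of bleomycin (-0.59, limma adjusted p = 0.0018), Rrm2, a subunit of ribonucleotide reductase, at 6 weeks of recovery (-0.80, 0.00399) and Tk1 at 10 weeks (-0.61, 0.0486). Uhrf1, which keeps DNA methylation through replication, was lower than saline at all 4 times, by 0.74, 0.71, 1.02 and 0.61 on the log2 scale (limma adjusted p = 0.00124, 0.00168, 0.00139 and 0.0496). With the hair keratin level in the fit, 0 of the 60 were called lower at 2 or 4 weeks of bleomycin, so the calls of Uhrf1, Chtf18, Ticrr, Clspn and Dut at those times were lost. Hells, a remodeller of the same setting, was lower at 6 weeks of recovery (-0.87, limma adjusted p = 0.00405).
Between 4 weeks of bleomycin and 6 weeks of recovery, 5 of the 60 were lower (8.33%), near the 7.14% of all genes. Named after their values were seen, these were Orc1 (-1.03), Wdhd1 (-0.95), Dna2 (-0.83), Chaf1b (-0.59) and Gins2 (-0.59).

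Mitosis genes were set beside the licensing genes because they mark a later stage of the cell cycle. Of 23 genes of spindle, kinetochore and cytokinesis, 5 were lower than with saline by week 2 of bleomycin and 23 by week 4, then 18 by week 6 of recovery and 1 by week 10, and 0 were higher. These are 21.7%, 100%, 78.3% and 4.35% of the list, against 7.43%, 7.37%, 1.71% and 0.998% of all genes called lower. The median log2 fold changes were -0.46, -0.96, -0.82 and -0.56. Whether the licensing and mitosis genes differ in their change was not tested.
Top2a, which untangles sister chromatids, ranged from 597 through 931 to 2368 with saline, from 486 through 797 to 1001 at 2 weeks and from 297 through 485 to 855 at 4 weeks of bleomycin. At 6 weeks of recovery it ranged from 383 through 505 to 725. Its log2 fold change was -0.43 (SE 0.18, limma adjusted p = 0.06) and then -0.98 (SE 0.18, 2.68e-05) during bleomycin, and -0.98 (SE 0.21, 0.00188) and then -0.58 (SE 0.19, 0.0647) in recovery.
The largest falls of the list during bleomycin were those of Plk1 (-0.75) and Aurkb (-0.74) by week 2 and of Ccnb1 (-1.17) and Aurkb (-1.11) by week 4. In recovery they were those of Top2a and Kif11 (-0.95) by week 6, and the single call by week 10 was Kif23 (-0.60). Ccnb1 is the mitotic cyclin, Plk1 and Aurkb are mitotic kinases, and Kif11 and Kif23 are motors of the spindle. From 2 to 4 weeks of bleomycin all 23 mitosis genes had a negative difference (median -0.45; 0 called in limma or edgeR, 1 in DESeq2, 20 with an unadjusted p under 0.05 in limma), whereas the licensing median was 0.04. Between the end of bleomycin and week 6 of recovery the mitosis median was 0.18 and the licensing median -0.28.
Leaving out mouse 5 of the group at 6 weeks of recovery reduced the 18 calls to 9, and at 2 weeks of bleomycin the 5 calls became 3 without saline mouse 1 and 8 without saline mouse 8. The single call at 10 weeks rested on individual mice and became between 0 and 9 calls with 1 mouse left out.

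**Figure D3:**
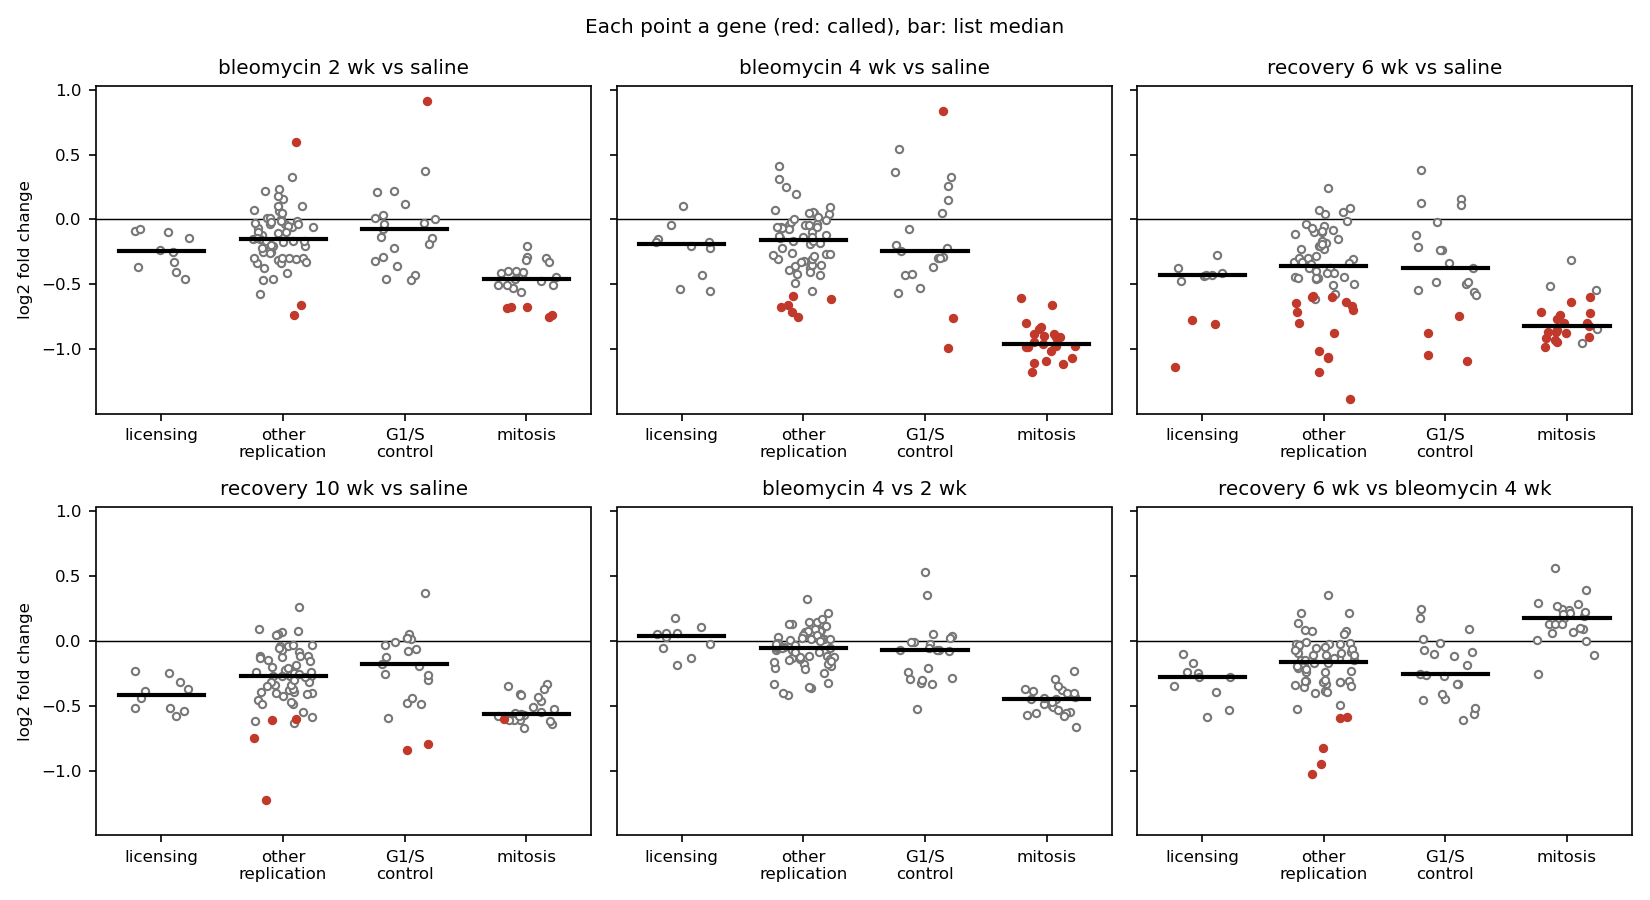
Log2 fold change (vertical axis) of every tested gene of 4 lists (licensing 10, other replication 60, G1/S control 21, mitosis 23), as points, in 6 comparisons; red points are called and bars are list medians. At 4 weeks of bleomycin all 23 mitosis points are red and below 0, around a median of -0.96, while the licensing points lie around -0.19 with none red.

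Genes that govern entry into S phase were followed as well. Of 21, 0 were lower and 1 higher by week 2 of bleomycin, and 2 lower and 1 higher by week 4. In recovery 4 were lower by week 6 and 2 by week 10. The lower shares of 0% and 9.52% during bleomycin and 19% and 9.52% in recovery stood against 7.43%, 7.37%, 1.71% and 0.998% of all genes. The lower share at 4 weeks was thus near the background. The higher share was 4.76% at both bleomycin times, under the 9.3% and 10.5% of all genes called higher. The median log2 fold changes were -0.07, -0.24, -0.38 and -0.18. The gene that was higher was Cdkn1a, the p53 target p21, which inhibits cyclin-dependent kinases and binds Pcna. Cdkn1a ranged from 2754 through 3158 to 3918 normalized counts with saline, from 5367 through 6130 to 7771 at 2 weeks and from 5306 through 5811 to 6033 at 4 weeks of bleomycin. Every bleomycin mouse was above every saline mouse, as for 3.44% of all genes at 2 weeks and 4.31% at 4 weeks. It rose by 0.91 (SE 0.06, limma adjusted p = 3.43e-17) and 0.83 (SE 0.06, 7.09e-16) on the log2 scale. At 6 weeks of recovery it ranged from 3921 through 4114 to 4625, still above every saline mouse (as for 1.41% of all genes), and at 10 weeks from 3879 through 4178 to 4510, with an overlap. These smaller differences of 0.38 (SE 0.07, limma adjusted p = 0.000153) and 0.37 (SE 0.06, 0.000124) passed the adjusted p and not the fold threshold.
The S phase cyclin Ccna2 was lower at 4 weeks of bleomycin (-0.996, limma adjusted p = 3.96e-05). At 6 weeks of recovery the falls were led by the E2F repressor E2f7 (-1.09, limma adjusted p = 0.00244) and by Dtl (-1.04, 0.00312), which directs the destruction of Cdt1 in S phase; Dtl (-0.84, 0.0139) and E2f8 (-0.80, 0.00397) were also lower at 10 weeks.

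Markers of growing hair moved with the bleomycin groups, and hair matrix is one of the places where these genes are active. The 14 hair keratins measured were all called lower at 2 and 4 weeks of bleomycin and none at 6 or 10 weeks of recovery (limma; 0 with an adjusted p under 0.05 at either recovery time). Of all genes, 7.43%, 7.37%, 1.71% and 0.998% were called lower at these 4 times. At 6 weeks of recovery, where the licensing calls were made, all 14 still had negative values (median log2 fold change -2.12), and at 10 weeks the median was 0.22. Their summed level ran from 2344 to 276320 normalized counts with saline. It ran from 47.1 to 2150 and from 45.6 to 6305 in the bleomycin groups, and from 118 to 130380 and from 1504 to 207470 in the recovery groups. No hair keratin was at 0 in a whole group. The 10 regulators of the hair matrix were likewise lower at 2 and 4 weeks (10 of 10), with 1 of 10 lower at 6 weeks of recovery, where all 10 values were negative (median -1.47), and 0 at 10 weeks.
Within the saline group the orders of mice by licensing genes and by hair keratins differed in part. Saline mouse 1 was highest in both, at 9.25 for the mean log2 level of the licensing genes and 13.6 for that of the hair keratins. Saline mouse 6 had the lowest hair keratin level of its group (6.14) and a licensing level of 8.73, above the other 8 mice, whereas saline mouse 7 had a hair keratin level of 12.2 and a licensing level of 8.04.
With the mean hair keratin level of each mouse added to the fit, the licensing medians became 0.13 at 2 weeks and 0.10 at 4 weeks of bleomycin, 9 of 10 and 8 of 10 values then being positive and 0 called (against 4.52% and 5.08% of all genes called lower). At 6 and 10 weeks of recovery they were -0.36 and -0.43, with 2 genes called lower at 6 weeks (Mcm10 at -0.95 and Cdc6 at -0.68, against 1.07% of all genes) and 0 at 10 weeks (1.2%). Against 4 weeks of bleomycin, 5 genes were then called lower at 6 weeks of recovery, namely Mcm10 (-1.04), Mcm5 (-0.76), Cdt1 (-0.70), Mcm3 (-0.68) and Cdc6 (-0.59), where 7.87% of all genes were. During bleomycin, then, 9 of 10 directions at 2 weeks and 7 of 10 at 4 weeks turned with the hair keratin level in the fit, and in recovery 0 of 10 did at either time. The covariate moves a fold change only as far as the groups differ in hair keratins. Their median log2 fold changes were -8.06 and -7.15 during bleomycin but -2.12 and 0.22 in recovery. The recovery values therefore had little room to move, and this contrast does not separate bleomycin from recovery. The mean hair keratin level of every bleomycin mouse was below that of 8 of 10 saline mice, so the covariate and the treatment cannot be fully told apart, and the part of hair in these differences was not tested.
In that fit 0 of the 23 mitosis genes were called lower by week 2 of bleomycin and 11 by week 4, and 12 and 7 in recovery, with medians of -0.23, -0.65, -0.74 and -0.57. Over all genes 4.52%, 5.08%, 1.07% and 1.2% were then called lower in the same order.

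**Figure D4:**
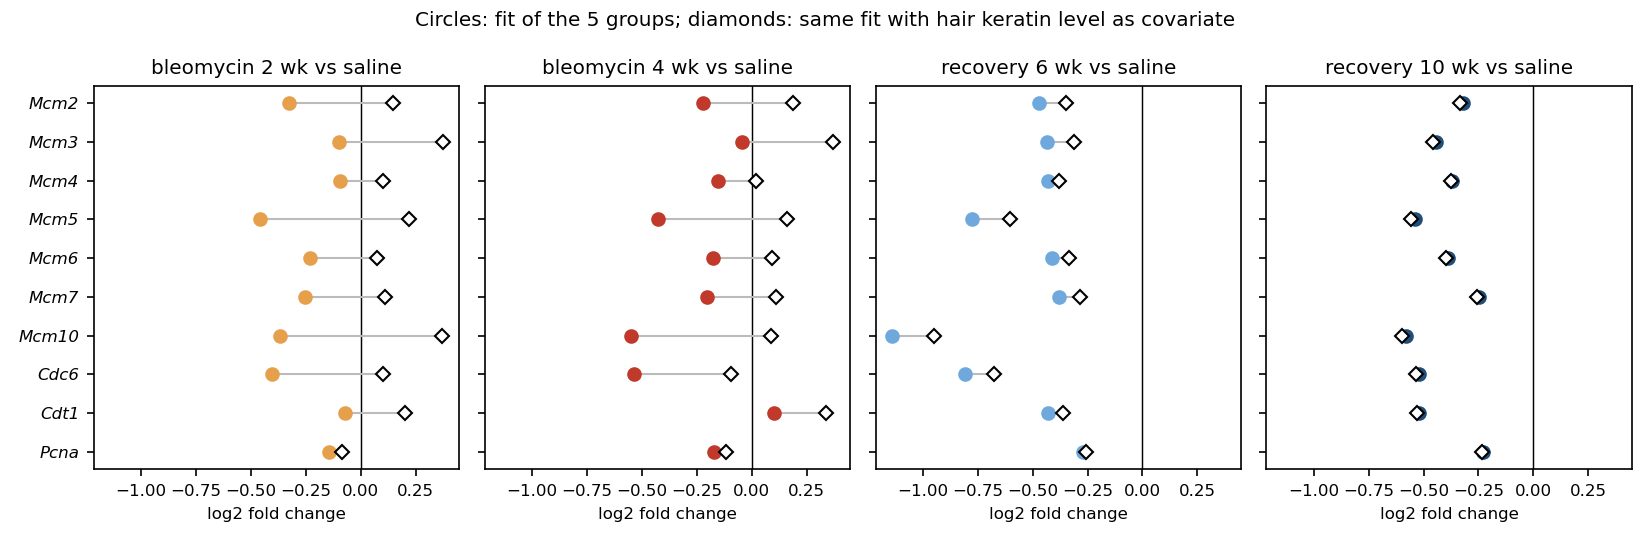
Log2 fold change against saline (horizontal axis) of each licensing gene in the fit of the 5 groups (circles) and in the same fit with the mean hair keratin level of each mouse as a covariate (diamonds). During bleomycin most diamonds lie right of 0, with medians of 0.13 and 0.10, and at 6 and 10 weeks of recovery all diamonds lie left of 0.

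Other cell types changed as well. For scale, 9.3% and 10.5% of all genes were called higher at 2 and 4 weeks of bleomycin, and 7.43% and 7.37% lower. At 6 and 10 weeks of recovery 3.33% and 2.05% were called higher, and 1.71% and 0.998% lower. Of 8 macrophage markers, 7 were higher at 2 weeks and 7 at 4 weeks of bleomycin and 0 at either recovery time; their summed level ran from 9709 to 23550 with saline and from 22902 to 53775 at 2 weeks. Neutrophil markers were higher in 5 of 5 at 2 weeks and 3 of 5 at 4 weeks, and 1 and 2 of 5 were lower at 6 and 10 weeks of recovery. T cell markers were higher in 3 and 1 of 7 during bleomycin, and B and plasma cell markers in 2 of 4 at both bleomycin times and 1 of 4 at both recovery times. Fat cell markers were lower in 2 of 5 at 2 weeks and 3 of 5 at 4 weeks and 0 in recovery, and 0 of 5 skeletal muscle markers were called at any time. Melanocyte markers were lower in 5 of 5 at 2 weeks and 0 of 5 later. All 5 still had negative values at 6 and 10 weeks of recovery (median log2 fold changes -1.07 and -0.36). Of 4 stress keratins, which wounded and hyperproliferative epidermis makes, 3 were higher at 2 weeks and 2 at 4 weeks and 0 in recovery. Of 6 fibroblast markers, 3 were lower at 2 weeks and 1 at each later time. Endothelial markers were higher in 2 of 5 at both bleomycin times and 3 of 5 at 6 weeks of recovery. None of the defining markers of these types was at 0 in a whole group, and their part in the levels of the licensing genes was not tested.

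**Figure D5:**
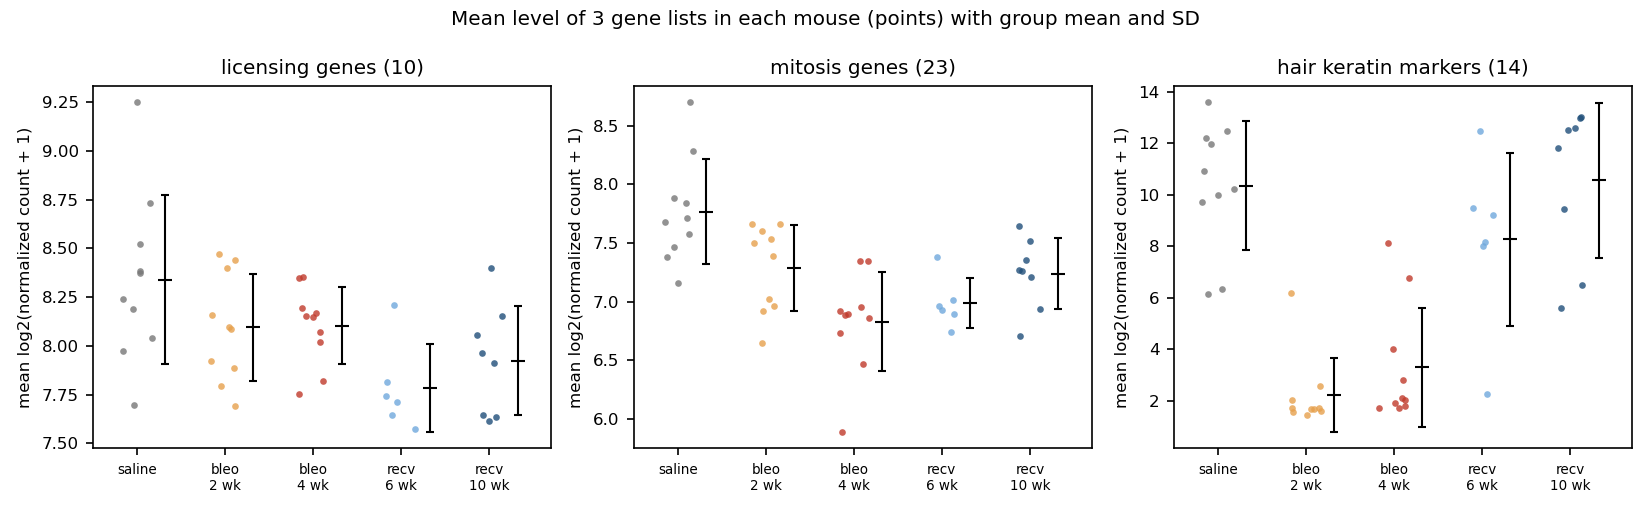
Mean of log2(normalized count + 1) (vertical axis) over the 10 licensing genes, the 23 mitosis genes and the 14 hair keratins in each mouse (points) by group (horizontal axis), with group mean and SD as bars. The licensing level has a median of 8.31 with saline, 8.09 and 8.15 in the bleomycin groups and 7.73 and 7.94 in the recovery groups, whereas the hair keratins have medians of 10.6, 1.7, 2.06, 8.69 and 12.2 in the same order.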

How the data were processed

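Total skin RNA was sequenced by the authors as 50 bp paired reads from stranded mRNA libraries, aligned to mm10 with STAR 2.4.0 and scaled with DESeq2 1.12.3; the deposited signal is a table of these size-factor normalized counts. The tool and annotation used for counting are not given in the sources used here. The smallest non-zero value of each mouse was taken as 1 read. Every value was a whole multiple of it (100.0% within 0.001, a margin that widened for high counts), so reads were recovered. Symbols matched 42929 of 43411 IDs; 14600 genes had no read. Groups follow the labels. limma 3.58.1 (R 4.3.3, mean-variance trend) was run over 17037 genes whose mean normalized count exceeded 3, with 1 added before taking log2 and all 5 groups in one fit; calls needed a fold above 1.5 and a Benjamini-Hochberg adjusted p under 0.05. The fold understates changes of genes with low counts. edgeR 4.0.16 (quasi-likelihood) and DESeq2 1.42.0 were run on the recovered reads. Other settings were a pseudocount of 0.1, no filter, at least 10 normalized counts in 6 mice, quantile normalization, rescaling by trimmed means (TMM), fits of the groups compared only, the replicate number as a block, mouse omissions, hair keratin level as a covariate and no fold threshold. Fits were tested on simulated data. Named genes are the 10 licensing genes, Top2a, at most 2 called genes with the largest change per list and comparison, and the 5 genes most like the licensing genes. The members and gene lists were chosen with earlier results of these data known. Replicate numbers do not pair mice: over 78 pairs of the same number, 18 had a correlation of deviations above 0.1 (median -0.00221). No pair of mice agreed within sampling noise (smallest chi-square per degree of freedom 5.06). Positions are of GENCODE M21 and promoters of RefSeq, both GRCm38. Python 3.11.15 with pandas 2.3.3 was used.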

Additional observations from a re-analysis of the deposited data

Results flagged for a closer look

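Chance marks about 1 in 20 groups by the gap test used here, and 3 of the 50 sets of values (10 genes in 5 groups) stood out, each because the highest mouse lay far from the next. Mcm10 was at 60.7 normalized counts in mouse 4 at 6 weeks of recovery, where the next mouse had 35.9; this mouse was the highest of its group for all 10 licensing genes, and without it the log2 fold change of Mcm10 against saline was -1.30 rather than -1.14. Omission of saline mouse 1, the highest of the saline group, moved that log2 fold change the other way, to -0.97. Cdt1 was at 265 in mouse 2 at 2 weeks of bleomycin, where the next mouse had 162, and without that mouse its log2 fold change against saline was -0.19 rather than -0.07. Pcna was at 1213 in mouse 1 at 4 weeks of bleomycin, where the next mouse had 1043.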

How the results depend on the processing

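Of the 23 sign changes under settings other than mouse omission, 19 came with the hair keratin covariate. Changed filters, fits of the groups compared only and no fold threshold leave the fold changes as they are. Those settings could not turn a sign, so the counts of kept directions overstate how far they were examined. Of 840 fold changes under the 12 settings other than mouse omission, 798 kept their direction and their side of the thresholds, 23 changed sign, 18 passed the thresholds where they had not and 1 no longer passed. With 1 mouse left out these were 3046, 19, 14 and 1, where omission of a mouse outside the groups compared leaves the fold change as it is. The cause of these changes was not tested. Values under about 10 normalized counts, as for Orc1, are limited by depth, whereas each licensing gene had at least 29 reads per mouse.
Licensing genes called lower, against 0, 0, 3 and 0 at 2 and 4 weeks of bleomycin and 6 and 10 weeks of recovery and 0 at week 6 of recovery against the end of bleomycin, became 1, 1, 6, 2 and 1 with no fold threshold. At 4 weeks of bleomycin edgeR gave 1 and DESeq2 2. Against the end of bleomycin the fit of these groups alone gave 1 (Mcm10), and the hair keratin covariate 5. The replicate number does not pair mice, and with it as a block the calls at 10 weeks of recovery became 1 (Cdc6, -0.59). With 1 mouse left out the ranges were 0 to 2 at 4 weeks of bleomycin, 2 to 3 at 6 weeks and 0 to 2 at 10 weeks of recovery, and 0 to 1 at week 6 of recovery against the end of bleomycin.
Signs turned with the hair keratin covariate at 2 weeks for Mcm2 (0.15), Mcm3 (0.37), Mcm4 (0.10), Mcm5 (0.22), Mcm6 (0.073), Mcm7 (0.11), Mcm10 (0.37), Cdc6 (0.10) and Cdt1 (0.20), and at 4 weeks for Mcm2 (0.19), Mcm3 (0.37), Mcm4 (0.018), Mcm5 (0.16), Mcm6 (0.0907), Mcm7 (0.11) and Mcm10 (0.0894). Between 4 and 2 weeks of bleomycin they turned for Mcm3 (-0.00483) and Mcm5 (-0.0569), and between 10 and 6 weeks of recovery for Mcm6 (-0.0642). Quantile normalization turned Mcm6 between 10 and 6 weeks of recovery (-0.00452) and Pcna between 4 and 2 weeks of bleomycin (0.00639). Leaving out saline mouse 1 and 2-week bleomycin mouse 2 together turned Mcm3 at 4 weeks (0.0518) and Pcna between 4 and 2 weeks (0.020005). With 1 mouse left out the values that crossed 0 ranged from -0.19 to 0.038 for Cdt1 at 2 weeks of bleomycin, from -0.14 to 0.0518 for Mcm3 at 4 weeks, from -0.0218 to 0.11 for Mcm5 and from -0.0557 to 0.020005 for Pcna between 4 and 2 weeks, and from -0.22 to 0.0213 for Cdt1, from -0.0927 to 0.0862 for Mcm3 and from -0.023 to 0.0983 for Mcm6 between 10 and 6 weeks of recovery.
Other replication genes called lower against saline (2, 6, 15 and 4) became 9, 14, 23 and 9 with no fold threshold, and 1, 2, 9 and 2 without the pair of mice; the hair keratin covariate gave 0, 0 and 8 at the first 3 times. At 10 weeks of recovery TMM rescaling and no filter gave 2 each, and the groups alone 1. Calls higher (1, 0, 0 and 0) became 3, 3, 0 and 1 with no fold threshold and 0 at 2 weeks in DESeq2. Of all 17037 genes, 2959, 3138, 851 and 603 were higher with no fold threshold, and 18.2%, 18.2%, 4.09% and 2.3% lower. With 1 mouse left out, lower calls of the other replication genes ranged from 1 to 3, 2 to 7, 9 to 18 and 2 to 7. Their higher calls at 2 weeks ranged from 0 to 1.
With no fold threshold, G1/S genes called lower (0, 2, 4 and 2) became 4, 10, 9 and 4. Higher ones (1, 1, 0 and 0) became 3, 4, 1 and 1, beside the counts of all genes given above. At 4 weeks edgeR and DESeq2 gave 4 lower, the covariate 1 lower and 3 higher, and quantile normalization and omission of the pair of mice 2 higher; at 10 weeks of recovery the groups alone gave 1 lower. With 1 mouse left out lower calls at 4 weeks ranged from 2 to 4 and higher ones from 1 to 2, and lower calls in recovery from 3 to 8 and from 2 to 3, with 8 without mouse 4 of the 6-week group.
Mitosis genes called lower (5, 23, 18 and 1) became 15 at 2 weeks and 4 at 10 weeks of recovery with no fold threshold, and 0, 11 and 7 at 2 and 4 weeks of bleomycin and 10 weeks of recovery with the covariate. At 10 weeks edgeR gave 8, DESeq2 11, quantile normalization 5, a pseudocount of 0.1 2, the replicate block 9 and omission of the pair of mice 0. These counts at 10 weeks are given without the share of all genes called in each setting. They do not show whether a rise was particular to the mitosis genes. With 1 mouse left out the mitosis calls ranged from 3 to 8, 21 to 23, 9 to 19 and 0 to 9. The replicate block changed no other count of calls by more than 1.5 times.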
